A study of Mus musculus with 16 samples.

Results

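T cell acute lymphoblastic leukaemias (T-ALL) with and without p53 were compared in mice whose Miz1 protein lacks its POZ domain. The comparison takes the 8 RNA sequencing libraries, 1 per mouse, that carry both the ICN induction and the Miz1 deltaPOZ label, out of 16 libraries in the series. The 4 p53 ko leukaemias were Miz1 deltaPOZ / p53 ko with ICN induction, 2 with the suffix Lck and 2 with the suffix Vav in their titles. The 4 p53 wt leukaemias were Miz1 deltaPOZ / p53 wt with ICN induction, again 2 Lck and 2 Vav. All 8 mice share the C57Bl6 strain, the truncated Miz1 and ICN, the active intracellular part of the Notch receptor, so none is a normal thymus or a Notch-free control. The 4 ICN leukaemias with Miz1 wt, 2 p53 ko and 2 p53 wt, serve as a second setting for the same p53 contrast. The labels do not explain the suffixes. They name no organ, sex, age or batch for these mice. The mice of 1 group are separate animals, so the p-values measure the spread between mice. The numbers that open the titles are higher in every p53 ko mouse than in every p53 wt mouse of the ICN leukaemias. The labels do not say what these numbers stand for. Anything that follows them cannot be told apart from p53 status.

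p53, encoded by Trp53, is a transcription factor that is stabilised after DNA damage or oncogene signalling and switches on genes for cell cycle arrest, cell death, DNA repair and its own degradation by Mdm2. The Cdkn2a locus encodes p19Arf, which binds Mdm2 and so protects p53, and p16Ink4a, an inhibitor of the CDK4 and CDK6 kinases. Through p21 and the DREAM repressor complex, p53 is also known to lower genes of DNA replication and mitosis. Miz1, encoded by Zbtb17, is a zinc finger transcription factor that needs its POZ domain to form stable complexes on DNA.

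Short promoter stretches of genes described here show the motifs that these programmes are known for. They were read from RefSeq promoter windows on GRCm38.p6, each from 250 bases before to 50 bases after a gene's start, and are written 5′ to 3′ on the gene's strand. Capitals mark the p53 decamer half-site in the first 3 and the CHR element TTTGAA, to which the DREAM complex binds, in the last 3.
Ccng1 (chr11:40755427-40755506, minus strand): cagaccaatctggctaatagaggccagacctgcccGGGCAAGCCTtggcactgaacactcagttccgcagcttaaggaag
Ei24 (chr9:36797315-36797379, minus strand): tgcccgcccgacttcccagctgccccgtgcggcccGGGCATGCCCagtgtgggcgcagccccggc
Mdm2 (chr10:117710900-117710979, minus strand): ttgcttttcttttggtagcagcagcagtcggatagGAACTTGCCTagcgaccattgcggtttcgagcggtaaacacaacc
Cdk1 (chr10:69352893-69352962, minus strand): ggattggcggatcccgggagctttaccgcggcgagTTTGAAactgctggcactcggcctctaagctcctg
Cdc20 (chr4:118437324-118437396, minus strand): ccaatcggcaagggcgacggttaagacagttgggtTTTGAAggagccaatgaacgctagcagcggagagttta
Ccnb2 (chr9:70421535-70421585, minus strand): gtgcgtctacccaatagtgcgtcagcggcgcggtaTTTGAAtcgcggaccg

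Searched on both strands, the half-site was in 21.5% of the 79 p53 target genes with a window and in 8.36% of all 32851 windows. The CHR element was in 70.8% of the 24 mitosis genes with a window, in 15% of the 20 replication genes and in 17.9% of all windows. A listed gene was counted if any of its windows held the motif, while the share over all windows counts each window singly. A gene with several windows therefore had more chances of a match, and the shares are not strictly comparable. A match says only that the letters are present.

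The 8 libraries held 46608800 to 53219412 gene counts in p53 ko and 45963842 to 58271208 in p53 wt. Markers of leukaemic T cells were abundant in every library, with a mean level of 7.64 to 8.07 log2 CPM (counts per 1e6 gene counts) in p53 ko and 7.51 to 8.03 in p53 wt. The share of alignments counted outside annotated genes separated the groups, at 14.2% to 16.7% in p53 ko and 17.0% to 21.5% in p53 wt. Alignments that were not unique made up 45.8% to 48.1% in p53 ko and 47.7% to 48.3% in 3 of the p53 wt libraries. The fourth, Vav p53 wt 2, stood apart at 56.2%. Of the Miz1 wt libraries, p53 ko 1 stood apart in the same measure, at 63.7%, and its neutrophil markers averaged 6.22 log2 CPM against 0.78 in p53 ko 2. Erythroid markers were abundant throughout, at 7.88 to 9.65 in p53 ko and 8.09 to 9.27 in p53 wt. Thymic epithelial markers were scarce, at -2.94 to -2.08 in p53 ko and -2.70 to -2.17 in p53 wt, with 3 of 10 listed genes high enough to test.

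Trp53 itself was measured first, because it checks the labels. Trp53 (chromosome 11, 69580359 to 69591873, plus strand, GRCm38) had 30.5, 23.4, 17.7 and 19.2 CPM in p53 ko leukaemias (2 Lck, then 2 Vav), against 93, 104, 113 and 92 CPM in p53 wt leukaemias. All p53 ko libraries lay below all p53 wt libraries, and the transcript was reduced rather than absent. The mean was 22.7 ± 5.71 CPM in p53 ko and 101 ± 9.89 CPM in p53 wt (SD, n = 4 each). Trp53 fell by 2.18 on the log2 scale (SE 0.17, adjusted p = 0.00943 by edgeR's quasi-likelihood test). The call was lost without Lck p53 wt 2 (adjusted p = 0.0551), without Vav p53 ko 2 (0.0744), and with the share of alignments outside genes (0.0549) or the neutrophil marker level (0.144) as a covariate. Both covariates were apart between the p53 groups, so a fit with either cannot separate it from p53 status. In these fits the log2 difference of Trp53 was -2.55 with the share outside genes and -2.68 with the neutrophil marker level. The counts cover the whole gene and do not show which exons the reads come from.

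The other protein-coding gene that changed lies upstream of p53. Cdkn2a (chromosome 4, 89274471 to 89294653, minus strand) had 61.7, 22.5, 49.2 and 78.4 CPM in p53 ko leukaemias, against 0.354, 0.718, 1.52 and 0.46 CPM in p53 wt leukaemias. The groups were far apart, with the lowest p53 ko library well above the highest p53 wt library. The mean was 52.9 ± 23.6 CPM in p53 ko and 0.763 ± 0.527 CPM in p53 wt (SD, n = 4 each). Cdkn2a rose by 6.15 (log2, SE 0.54, adjusted p = 0.0176 by edgeR). The difference was at least 5.35 in every alternative, but the call was lost without Lck p53 wt 1, Lck p53 wt 2 or Vav p53 ko 2 (adjusted p of 0.123, 0.11 and 0.0952) and with either covariate (0.676 with the neutrophil marker level and 0.296 with the share outside genes). Gene counts do not separate p19Arf from p16Ink4a. In the Miz1 wt leukaemias Cdkn2a had 35.7 and 48.0 CPM in p53 ko, against 0.965 and 1.44 CPM in p53 wt.

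Cdkn2b, the neighbouring gene for the CDK inhibitor p15Ink4b, had 1.82, 0.584, 0.886 and 1.14 CPM in p53 ko leukaemias, against 0.157, 0.0898, 0.133 and 0.153 CPM in p53 wt leukaemias. The groups did not overlap, but the difference of 3.01 (log2, SE 0.47) did not pass the threshold across all genes (adjusted p = 0.0806 by edgeR). Cdkn2c, for the related inhibitor p18Ink4c, averaged higher as well, at 148 to 191 CPM in p53 ko and 109 to 137 CPM in p53 wt (log2 difference 0.50, adjusted p = 0.124). Of the 18 tested regulators and relatives of p53, 1 rose (Cdkn2a) and 1 fell (Trp53). The kinases Atm, Atr, Chek1 and Chek2 and the inhibitors Mdm2 and Mdm4 overlapped between the groups.

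**Figure D1:**
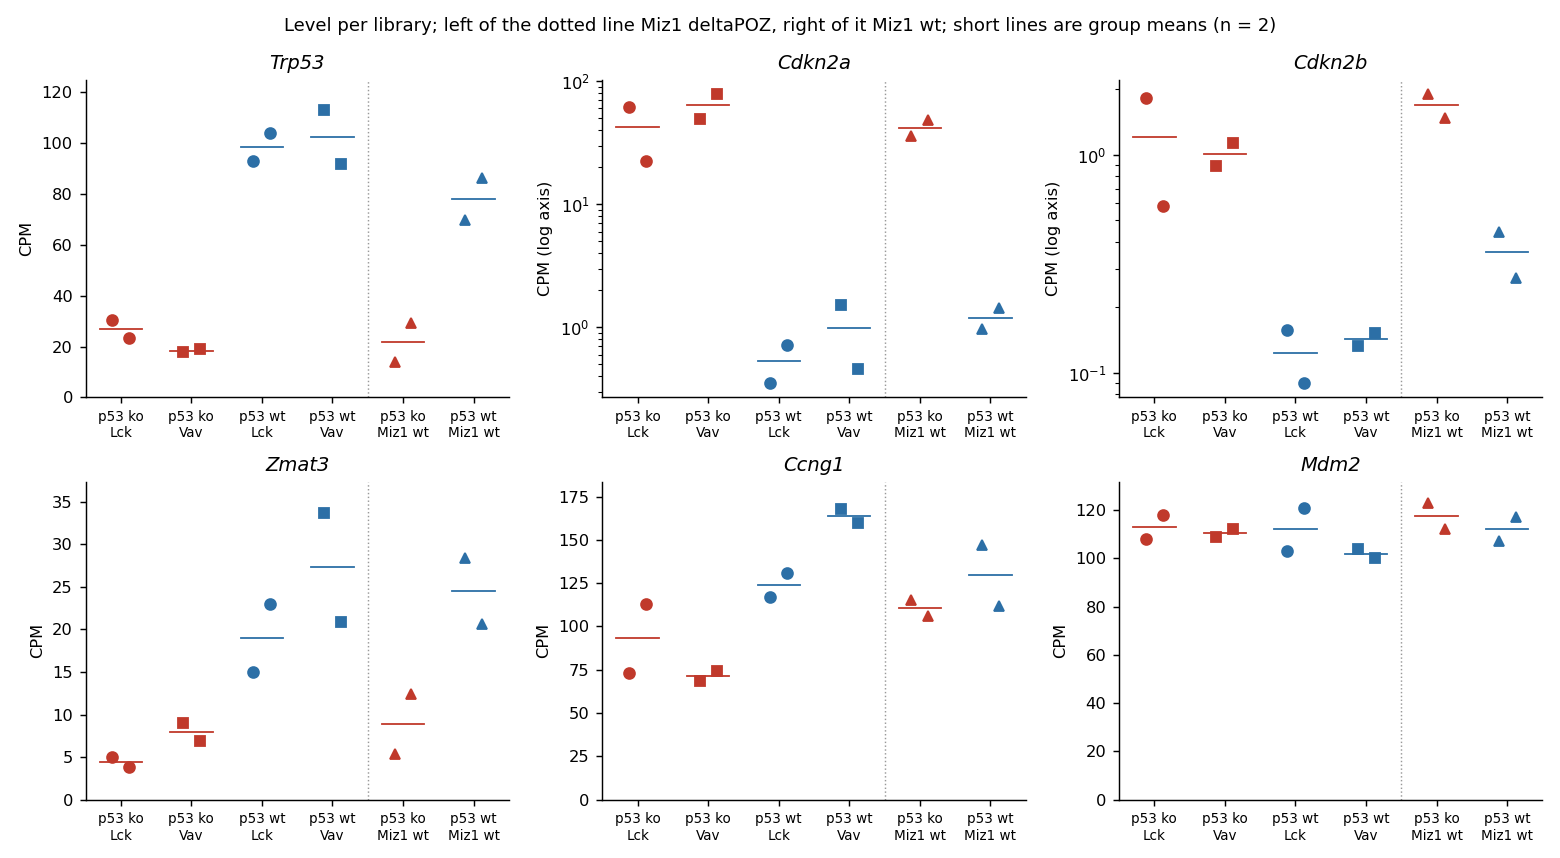
Level of 6 genes in each of the 12 ICN libraries in CPM, with a log axis for Cdkn2a and Cdkn2b; red is p53 ko, blue is p53 wt, circles are Lck, squares Vav and triangles Miz1 wt mice. Trp53 sits at 17.7 to 30.5 CPM in the 4 Miz1 deltaPOZ p53 ko libraries and at 92 to 113 in the p53 wt libraries, Cdkn2a is separated in the opposite direction, and Mdm2 lies at 100 to 121 CPM in these 8 libraries.

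Few genes passed the test across the whole table. Of 15745 genes tested, 4 rose (0.0254%) and 3 fell (0.0191%) at an adjusted p under 0.05, with the Lck or Vav suffix as a block. Without adjustment 2912 genes (18.5%) had a p under 0.05, and of these 1359 were higher (8.63%) and 1553 lower (9.86%). All 4 p53 ko libraries lay above all 4 p53 wt libraries in 732 genes (4.65%) and below them in 984 (6.25%). These counts use levels scaled over the 12 ICN libraries, as do the shares of genes apart given below. Scaled over the 8 libraries alone, 822 genes were higher and 879 lower. Without scaling factors 921 were higher and 774 lower, so which direction has more genes depends on the scaling. DESeq2's Wald test on the same counts called 635 genes higher (4.03%) and 710 lower (4.51%). Without the library Vav p53 wt 2, edgeR called 13 higher and 29 lower. Leaving out Vav p53 ko 1 gave 60 higher and 38 lower, and the other single omissions gave at most 3 higher and 2 lower.

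The other 5 genes that passed are non-coding or pseudogenes. Eif5al3-ps, a processed pseudogene (chromosome 5, 90132229 to 90132675, plus strand), had 7.4, 6.08, 10.2 and 11.2 CPM in p53 ko leukaemias, against 0.157, 0.269, 0.304 and 0.272 CPM in p53 wt leukaemias. It rose by 5.09 (log2, SE 0.28, adjusted p = 0.00159 by edgeR), and every p53 ko library was above every p53 wt library. Counts of processed pseudogenes are uncertain because they can share reads with their parent genes. Gm12070, another processed pseudogene, rose by 3.22 and the processed transcript Gm10863 by 3.67, with adjusted p of 0.0302 and 0.0181. Gm10863 did not show this with Miz1 wt, at 0.616 and 1.46 CPM in p53 ko and 1.1 and 1.86 CPM in p53 wt. The processed transcript 1810026B05Rik fell by 1.51 (adjusted p = 0.0255), at 10.8 to 13.9 CPM in p53 ko and 30.1 to 39.0 CPM in p53 wt, and overlaps Gm44686 on the opposite strand. Of 19 alternatives, Eif5al3-ps passed in 17, Gm12070 in 11, and Gm10863, 1810026B05Rik and Gm7125 in 10 each.

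The lincRNA Gm7125 was close to absent without p53. It had 0.0449, 0, 0.0181 and 0.0416 CPM in p53 ko leukaemias, against 1.37, 1.95, 1.2 and 1.6 CPM in p53 wt leukaemias. It fell by 5.77 (log2, SE 0.61, adjusted p = 0.0303), a value that rests on 5 counts in p53 ko and 314 in p53 wt. In Miz1 wt leukaemias it was at 0 and 0.0198 CPM in p53 ko, and at 2.86 and 0 CPM in p53 wt, so the p53 wt mice of that setting differed from each other.

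The p53 targets were spread on both sides of 0, much like all genes. Of 94 listed targets 89 were tested, and 40 of these had a negative log2 difference, beside 7758 of all 15745 genes. None passed edgeR's test in either direction, 18 had an unadjusted p under 0.05 (10 higher, 8 lower), and DESeq2 called 2 higher and 4 lower. The shares of all genes, higher and lower, were 8.63% and 9.86% at that p, and 4.03% and 4.51% by DESeq2. In 7 targets (7.87%) all p53 ko libraries lay below all p53 wt libraries, and in 2 (2.25%) above, beside 6.25% and 4.65% of all genes. With levels scaled over the 8 libraries alone, 5 targets were lower and 2 higher, and without scaling factors 5 were lower and 4 higher. The median log2 difference over the targets was 0.05, against 0.01 over all genes tested. Its sign was not stable, at 0.10 in the Lck and -0.06 in the Vav mice, -0.15 with the neutrophil marker level as a covariate and -0.03 with the share of alignments outside genes.

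Among the cell death targets, Zmat3, an RNA-binding protein that p53 induces, had 5.05, 3.85, 9.05 and 6.88 CPM in p53 ko leukaemias, against 15, 23, 33.7 and 20.9 CPM in p53 wt leukaemias. The groups were apart, and the log2 difference of -1.94 (SE 0.25) missed the threshold in edgeR (adjusted p = 0.0613) and passed it in DESeq2. Ei24 was lower without overlap by a smaller margin, at 27.6 to 44.3 CPM in p53 ko and 44.4 to 56.1 CPM in p53 wt (log2 difference -0.45). The death receptor gene Fas ran the other way, with 4.1, 11.9, 1.92 and 2.78 CPM in p53 ko leukaemias and 1.49, 1.35, 0.816 and 0.8 CPM in p53 wt leukaemias (log2 difference 2.01, adjusted p = 0.0999). The mitochondrial death genes Bax and Bbc3 (PUMA) overlapped, with log2 differences of -0.28 and 0.03.

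Among the targets for arrest and feedback, Ccng1, the cyclin G1 gene whose promoter stretch with a half-site is printed above, had 73.4, 113, 68.7 and 74.2 CPM in p53 ko leukaemias, against 117, 131, 168 and 160 CPM in p53 wt leukaemias. The highest p53 ko library lay just under the lowest p53 wt library (log2 difference -0.81, SE 0.20, adjusted p = 0.12). Cdkn1a, which encodes p21, was low in both groups and overlapped, at 1.03, 2.36, 0.434 and 0.499 CPM in p53 ko leukaemias and 0.884, 0.382, 1.1 and 0.97 CPM in p53 wt leukaemias. Mdm2, which also carries the half-site, had 108, 118, 109 and 112 CPM in p53 ko leukaemias and 103, 121, 104 and 100 CPM in p53 wt leukaemias. Neither difference was larger than its error (log2 0.14, SE 0.64, for Cdkn1a and 0.05, SE 0.09, for Mdm2). Sfn, which encodes the checkpoint protein 14-3-3 sigma, was higher without overlap, at 7.11 to 12.8 CPM in p53 ko and 3.24 to 4.1 CPM in p53 wt (log2 difference 1.32, adjusted p = 0.0969).

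In the other target classes only the repair gene Xpc, the kinase receptor gene Ddr1 and the GTPase gene Rap2b were apart, all lower in p53 ko leukaemias. Ddr1 had 3.75, 2.88, 5.57 and 1.54 CPM in p53 ko, against 13.1, 6.73, 8.87 and 9.63 CPM in p53 wt (log2 difference -1.48, adjusted p = 0.148). Trp53cor1, a long non-coding RNA next to Cdkn1a, was under 0.1 CPM in p53 ko and between 0.247 and 0.304 CPM in p53 wt.

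**Figure D2:**
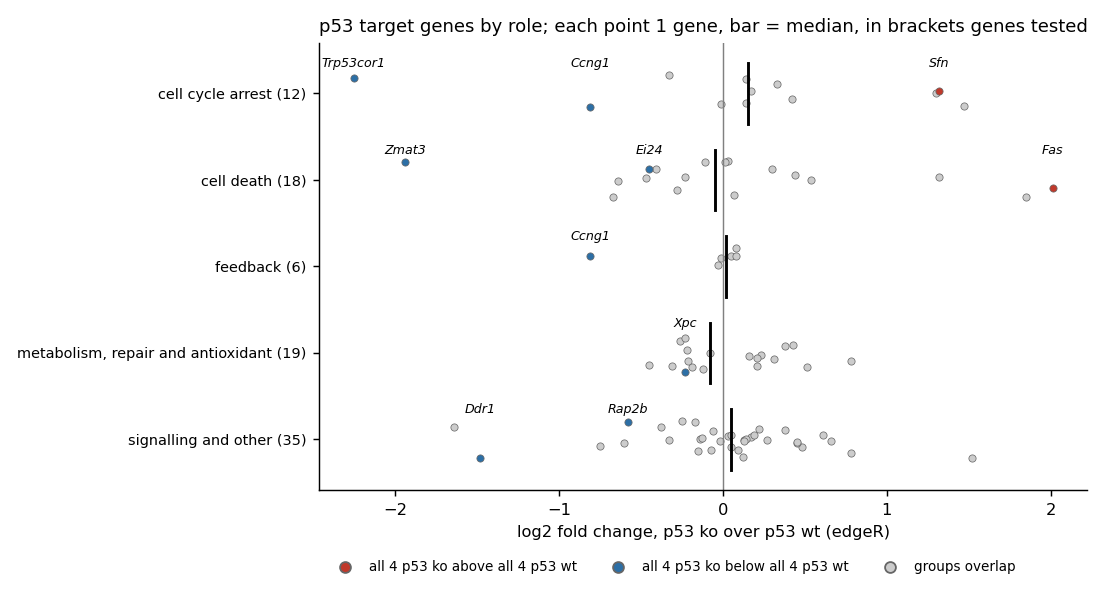
Log2 fold change, p53 ko over p53 wt, of the tested p53 target genes by role (Ccng1 counts under 2 roles); black bars are medians, red and blue points are genes whose groups did not overlap. The points scatter around 0, with Zmat3 at -1.94 and Trp53cor1 at -2.25 on the left and Fas at 2.01 and Sfn at 1.32 on the right.

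Cell cycle genes that are known to be repressed through p53 and DREAM had positive log2 differences in 50 of 56 cases and negative ones in 6. None of the 56 passed edgeR's test, but 21 had an unadjusted p under 0.05, all of them higher (8.63% of all genes were). DESeq2 called 6 higher and 0 lower, beside 4.03% and 4.51% of all genes, and limma-voom called 0. In 12 of 29 mitosis genes (41.4%) and 5 of 27 replication genes (18.5%) all p53 ko libraries lay above all p53 wt libraries, beside 4.65% of all genes. In no mitosis or replication gene did they lie below. The median log2 difference was 0.30 for mitosis and 0.22 for replication genes, against 0.01 over all genes.

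Cdc20, the activator of the anaphase-promoting complex, had 247, 219, 198 and 239 CPM in p53 ko leukaemias, against 124, 166, 145 and 139 CPM in p53 wt leukaemias. Every p53 ko library exceeded every p53 wt library (log2 difference 0.65, SE 0.12, adjusted p = 0.0964 by edgeR). Part of Cdc20's reads may be shared with Elovl1, which overlaps it on the opposite strand, because the strand setting of the counting is not given. Cdk1, the mitotic kinase, had 295, 261, 257 and 247 CPM in p53 ko leukaemias and 175, 195, 202 and 187 CPM in p53 wt leukaemias, again apart (log2 difference 0.48, adjusted p = 0.109). Ccnb2, encoding cyclin B2, had 260, 213, 186 and 190 CPM in p53 ko and 146, 167, 147 and 177 CPM in p53 wt (log2 difference 0.41, adjusted p = 0.185). Nek2 and Cdc45 overlap Gm38037 and Ufd1 on the opposite strand. The mitotic kinase genes Nek2, Aurkb and Aurka, the survivin gene Birc5 and the replication gene Cdc45 were also apart, with log2 differences of 0.62, 0.48, 0.42, 0.56 and 0.57.

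The share of alignments outside genes and the neutrophil marker level moved with these differences. Both were apart between the p53 groups, so fits that include them cannot separate them from p53 status. With that share as a further covariate the median over the 56 cell cycle genes was 0.11, and with the neutrophil marker level it was 0.15, against 0.26 without either. With single libraries left out it stayed between 0.20 and 0.31.

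Markers of other blood cells differed between libraries. Neutrophil and granulocyte markers had a mean level of 7.45, 6.99, 3.57 and 4.87 log2 CPM in p53 ko leukaemias, against 2.90, 2.07, 3.45 and 1.74 in p53 wt leukaemias. The 2 Lck p53 ko libraries were far above the rest, and the lowest Vav p53 ko library was close to the highest p53 wt library. All 16 markers had a positive log2 difference (median 3.42), 9 of them (56.2%, beside 4.65% of all genes) with groups apart. None passed edgeR's test, 11 had an unadjusted p under 0.05 and DESeq2 called 11 higher. Of all genes 8.63% and 4.03% were higher by these measures. With Miz1 wt the mean level of these markers overlapped between the p53 groups. It was 6.22 and 0.78 log2 CPM in Miz1 wt p53 ko and 4.03 and 0.69 in Miz1 wt p53 wt. In bulk RNA more cells of a type and more RNA per cell cannot be told apart.

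The primary granule protease gene Elane had 37.7, 64.7, 7.04 and 28.7 CPM in p53 ko leukaemias, against 1.26, 0.741, 1.59 and 1.09 CPM in p53 wt leukaemias. Its 4 p53 ko values were all higher and differed widely among themselves (log2 difference 4.68, SE 0.64, adjusted p = 0.0613). Ctsg, Prtn3 and Mpo, for other primary granule proteins, and Ms4a3, a gene of granulocyte and monocyte progenitors, had log2 differences of 4.49, 4.21, 4.28 and 4.29, and Prtn3 and Mpo overlap other genes on the opposite strand. The 7 markers whose groups overlapped were Retnlg, Mmp8, Cxcr2, Csf3r, Mmp9, Ly6g and S100a8, with log2 differences of 1.30 to 3.18. Those apart differed by 3.41 to 4.68, among them Camp (4.22) and Ltf (3.97), for proteins of secondary granules. Of the overlapping ones, Mmp8 had 88.5, 61, 4.49 and 7.13 CPM in p53 ko and 12.3, 5.25, 11.4 and 3.2 CPM in p53 wt. Macrophage and dendritic markers were at 2.64 to 4 in p53 ko and 2.26 to 3.04 in p53 wt (mean log2 CPM), and natural killer and cytotoxic markers at 1.16 to 2.97 in p53 ko and 1.09 to 1.52 in p53 wt. B cell markers overlapped, at 2.92 to 4.43 in p53 ko and 3.71 to 4.22 in p53 wt.

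**Figure D3:**
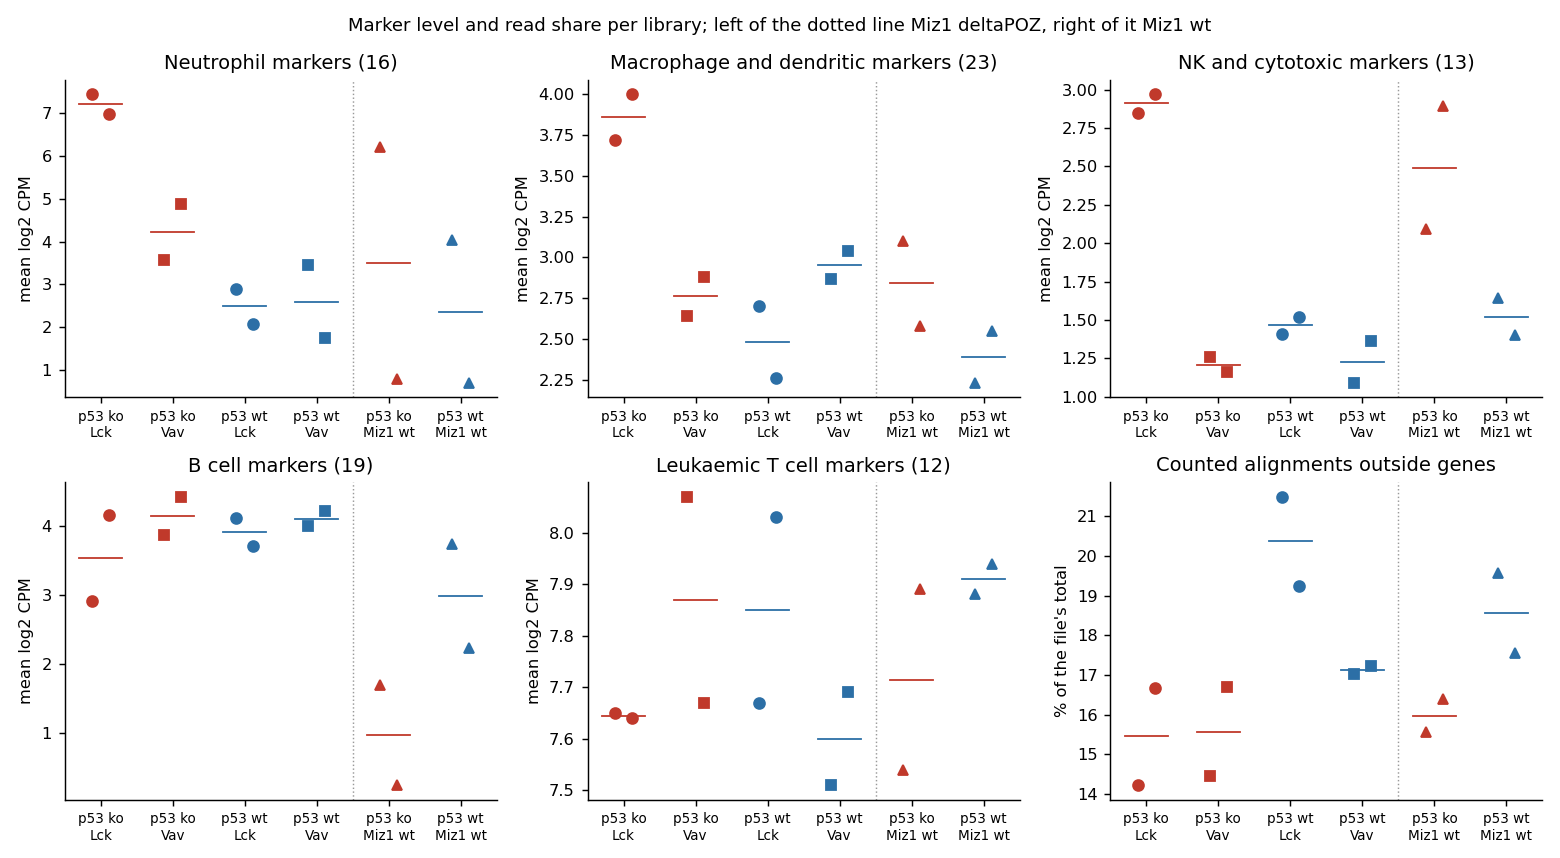
Mean log2 CPM of marker lists and the percent of alignments outside genes, in each ICN library, with red for p53 ko and blue for p53 wt; short lines are means of 2 libraries. The 2 Lck p53 ko libraries stand highest for neutrophil and macrophage markers, while leukaemic T cell markers stay between 7.51 and 8.07 in the Miz1 deltaPOZ libraries.

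Besides the granule genes, the genes with the lowest p among those higher in p53 ko leukaemias included Cntd1, Flot2, Ahr, Samsn1 and Ppp1r3b, none past the threshold. The rule that names these genes requires the groups to be apart. Cntd1, whose product acts in meiotic crossing over and whose reads may be shared with Becn1 and Coa3, had 4.22 to 5.6 CPM in p53 ko and 0.626 to 1.26 CPM in p53 wt (log2 difference 2.22). With Miz1 wt its difference had the opposite sign, -0.63. Ahr, the aryl hydrocarbon receptor gene, had 3.96 to 8.92 CPM in p53 ko and 1.26 to 2.04 CPM in p53 wt (log2 difference 2.07, adjusted p = 0.0806), and its difference was 1.73 with Miz1 wt. The membrane raft gene Flot2, the adaptor gene Samsn1 and the glycogen phosphatase subunit gene Ppp1r3b differed by 0.89, 1.37 and 1.64. With the neutrophil marker level as a covariate the difference was 1.33 for Ahr and 0.54 for Flot2.

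On the lower side, Trp53 alone passed among protein-coding genes. Next came Lamp2, a lysosomal membrane protein gene on the X chromosome, with 85.4, 126, 83.1 and 62.6 CPM in p53 ko leukaemias, against 421, 296, 189 and 288 CPM in p53 wt leukaemias. The groups were apart, which the rule that names these genes requires (log2 difference -1.74, SE 0.22, adjusted p = 0.0613 by edgeR). Zbtb33, for the methyl-DNA binding protein Kaiso, and Pgrmc1, for a haem-binding membrane protein, lie near Lamp2 on that chromosome and differed by -1.09 and -1.40. The others were the Golgi sugar transporter gene Slc35a3 (-0.80), Vamp7, a vesicle fusion gene (-1.27), Rapgef2, an activator of Rap GTPases (-2.34), the adhesion gene Nectin1 (-2.31), Accs (-1.21), the endophilin gene Sh3gl3 (-2.35) and Plxdc1 (-1.78). Their adjusted p lay between 0.0613 and 0.0843.

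Notch targets were examined because all leukaemias were induced by ICN. Notch1 counts overlapped widely, at 528, 890, 620 and 276 CPM in p53 ko leukaemias and 361, 609, 296 and 915 CPM in p53 wt leukaemias. Nrarp and Notch1 overlap other genes on the opposite strand. Of 23 Notch targets none passed edgeR's test, 2 were higher and 6 lower at an unadjusted p under 0.05, 3 (13%) were lower without overlap, and DESeq2 called 2 higher and 5 lower. Over all genes 8.63% were higher and 9.86% lower at that p, 6.25% were lower without overlap, and DESeq2 called 4.03% higher and 4.51% lower. The median was -0.30, and -0.08 without Vav p53 wt 2. Nrarp, a feedback inhibitor of Notch, had 164, 61.7, 257 and 96.3 CPM in p53 ko leukaemias, against 597, 568, 540 and 1190 CPM in p53 wt leukaemias (log2 difference -2.33, SE 0.44, adjusted p = 0.0964). Il2ra, the CD25 gene of immature thymocytes, had 177, 143, 302 and 58 CPM in p53 ko and 416, 599, 488 and 621 CPM in p53 wt. Both genes were apart between the groups, while Hes1, Dtx1 and Myc, other Notch targets, overlapped with log2 differences of 0.17, -0.34 and -0.30.

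Genes of T cell position and leukaemia drivers varied in both directions. S1pr1, the receptor that lets T cells leave the thymus, had 15.2, 28.4, 51.9 and 20.8 CPM in p53 ko leukaemias, against 272, 193, 117 and 164 CPM in p53 wt leukaemias. Its groups were apart (log2 difference -2.68, SE 0.45, adjusted p = 0.0843), as were those of Lef1 (-0.83). Of the T-ALL oncogenes, Lmo1 was higher by 3.60 at 0.199 to 1.84 CPM in p53 ko and 0.0589 to 0.114 CPM in p53 wt, and Bmi1 and Sox4 lower by log2 differences of -1.92 and -0.69. Of the T-ALL tumour suppressors, Phf6, on the X chromosome, had 77.9, 105, 125 and 103 CPM in p53 ko and 169, 188, 183 and 156 CPM in p53 wt (log2 difference -0.78). None of these genes passed the threshold. Of 42 thymocyte stage genes, among them S1pr1, 0 were higher and 3 (7.14%) lower without overlap. Of 15 T-ALL oncogenes and transcription factors 1 (6.67%) was higher and 2 (13.3%) lower. Of 25 T-ALL tumour suppressors and chromatin regulators 1 (4%) was higher and 4 (16%) lower, or 2 lower with levels scaled over the 8 libraries. Of all genes 4.65% were higher and 6.25% lower.

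The remaining lists gave 0 calls in edgeR apart from Cdkn2a. Mitochondrially encoded transcripts had 8 tested members, all with negative log2 differences (median -0.76), 6 with an unadjusted p under 0.05, 4 (50%) apart, and 3 called lower by DESeq2. mt-Nd2, for a subunit of respiratory complex I, had 92.7, 145, 81 and 137 CPM in p53 ko leukaemias, against 189, 262, 245 and 180 CPM in p53 wt leukaemias. The interferon response list had a median of 0.47 over 34 genes, 13 with an unadjusted p under 0.05 and higher, 4 (11.8%) higher without overlap (Oas1a, Igtp, Bst2 and Irgm2), and 6 called by DESeq2. These counts stand beside the shares of all genes already given, 8.63% higher and 9.86% lower at an unadjusted p under 0.05, and 4.65% higher and 6.25% lower without overlap. DESeq2 called 4.03% of all genes higher and 4.51% lower. Of 20 unfolded protein and integrated stress response genes, 2 (10%), Xbp1 and Creld2, were apart and higher, by 0.80 and 0.70. The median of this list was 0.17, with 0.43 in the Lck and -0.05 in the Vav mice. With Miz1 wt the difference of Xbp1 was 0.05. The Bcl2 family, the T cell receptor signalling list and the DNA damage response list had medians of 0.05, -0.15 and 0.04.

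**Figure D4:**
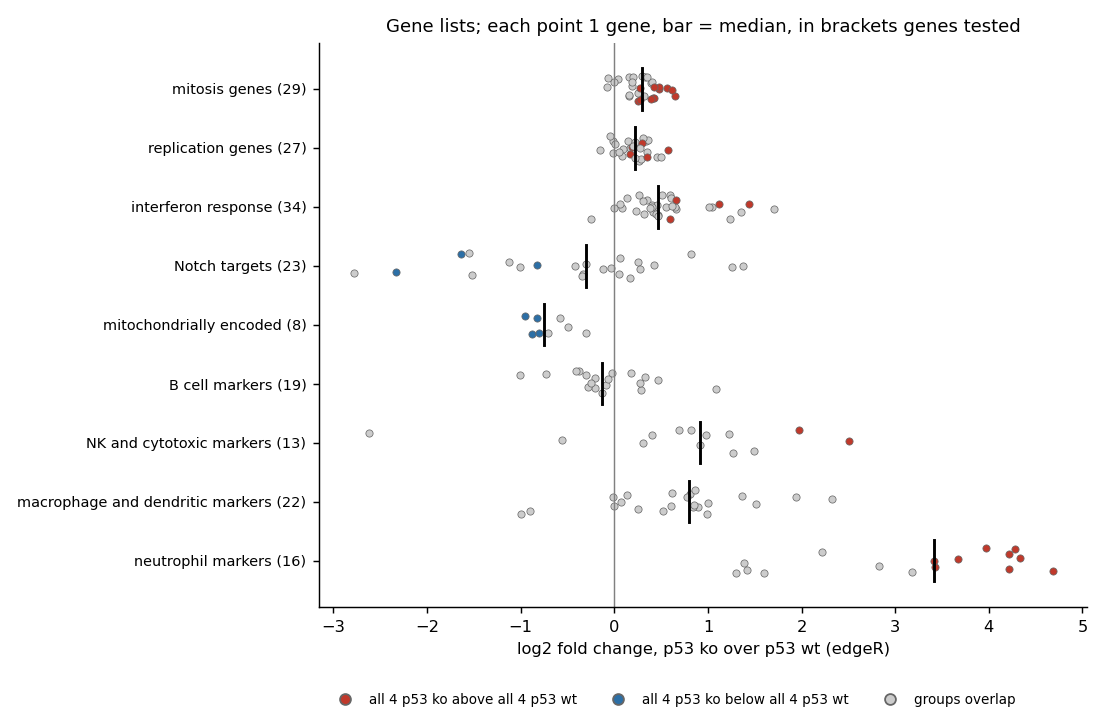
Log2 fold change, p53 ko over p53 wt, of the genes in 9 lists; black bars are medians and red or blue points are genes whose groups did not overlap. Mitosis genes sit close together at a median of 0.30, mitochondrially encoded genes at -0.76, and neutrophil markers far to the right at 3.42.

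The contrast was then taken within each suffix, 2 p53 ko against 2 p53 wt mice. In the Lck mice 105 of 16267 genes passed (0.645%), 94 higher and 11 lower, all at an adjusted p of 0.0486 to 0.0498 by edgeR. They include 6 of the 16 neutrophil markers (Camp, Ltf, Elane, Mpo, Prtn3 and Cebpe) and 5 macrophage markers (C1qa, C1qb, C1qc, Lyz2 and Fcgr3). Without any 1 of the 4 Lck libraries 0 to 1 genes passed, and DESeq2 called 1368. The Vav mice had 3 calls (0.0184%), namely Trbv12-2, Eif5al3-ps and Trp53, each at an adjusted p of 0.0203 by edgeR. Without any 1 of the 4 Vav libraries 0 to 1 genes passed, and DESeq2 called 194. Trp53 differed by -1.88 in the Lck mice and -2.44 in the Vav mice, and Cdkn2a by 6.29 and 6.04. Neutrophil markers had a median of 4.98 in the Lck mice and 1.95 in the Vav mice, and natural killer markers 2.09 and 0.02.

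Tested directly, the p53 effect differed between Lck and Vav mice for 1 gene (0.00615%). Trbv12-2, a T cell receptor beta variable segment, had 3.97 and 2.6 CPM in Lck p53 ko, 148 and 139 CPM in Vav p53 ko, 15.5 and 32.9 CPM in Lck p53 wt and 2.37 and 2.64 CPM in Vav p53 wt. The difference of the effects, Lck minus Vav, was -8.75 (log2, SE 0.57, adjusted p = 0.0134 by edgeR). Leaving out 1 library gave 0 to 5 genes, the 5 without Lck p53 ko 1, and 0 in 5 of the other omissions. Among protein-coding genes, Mtmr7, a phosphoinositide phosphatase gene, came closest. It had 0.292 and 0.846 CPM in Lck p53 ko and 7.74 and 7.29 CPM in Lck p53 wt, but 13.3 and 9.19 CPM in Vav p53 ko and 0.0759 and 0.17 CPM in Vav p53 wt (adjusted p = 0.0677). H2-Q6, Ear6, Epx and Plbd1 had differences between 2.36 and 4.03 and an adjusted p of 0.395.

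**Figure D5:**
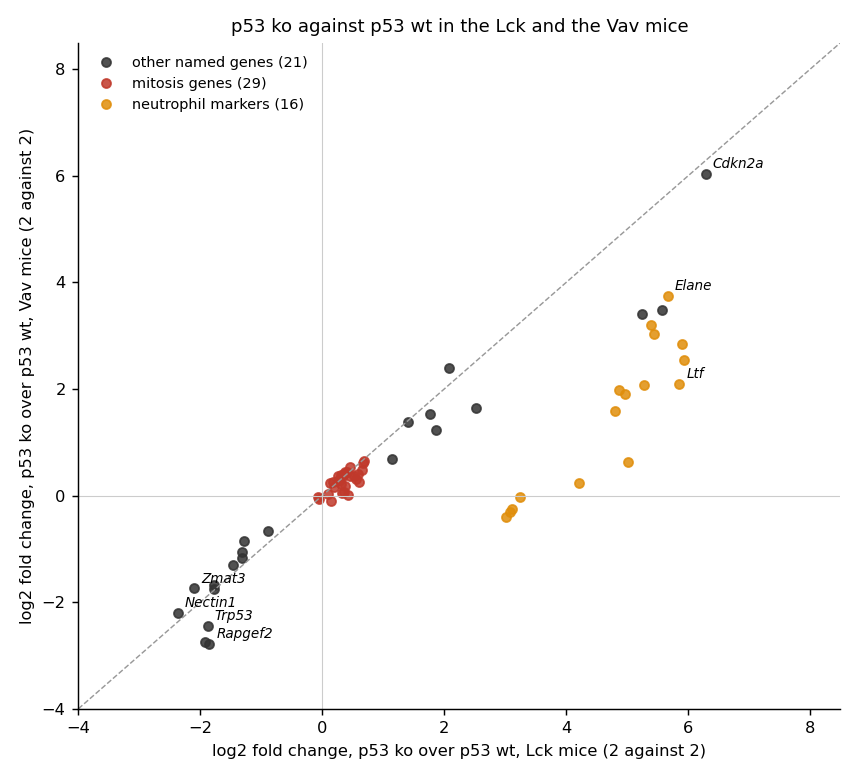
Log2 fold change, p53 ko over p53 wt, in the Lck mice (x axis) and the Vav mice (y axis), 2 against 2 mice each; the dashed line marks equal values. Mitosis genes and most named genes lie near the line, and all 16 neutrophil markers lie below it.

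In ICN leukaemias with Miz1 wt, p53 loss gave 2 calls of 16806 genes tested (0.0119%), Eif5al3-ps higher and the histone pseudogene Hist1h2al lower. Without the library p53 ko 1 of that setting 1 gene passed, and without p53 ko 2 none did. Trp53 had 14.1 and 29.4 CPM in Miz1 wt p53 ko, against 69.8 and 86.2 CPM in Miz1 wt p53 wt. The fitted effect of p53 loss was -1.84 on Trp53, 5.12 on Cdkn2a, 2.23 on Cdkn2b and -1.47 on Zmat3 with Miz1 wt. These have the sign of the deltaPOZ values above. The mitosis genes had a median of 0.33, and the mitochondrially encoded genes 0.22, where the deltaPOZ median was negative. The 2 Miz1 wt p53 ko libraries were not alike in the mean level of the 13 listed mitochondrially encoded genes. The library p53 ko 1, which stood apart in alignments that were not unique, was at 3.45 log2 CPM, above both Miz1 wt p53 wt libraries. The library p53 ko 2 was at 2.48, below both. Whether p53 loss acts differently on this list in the 2 settings was not tested. The difference between the 2 settings, deltaPOZ minus Miz1 wt, passed the threshold for 0 genes (0%) in edgeR, with 539 genes at an unadjusted p under 0.05 (3.21%) and 51 calls in DESeq2. S1pr1 was among the protein-coding genes with the lowest p of that difference (-2.05, SE 0.53, adjusted p = 1), at 59.1 and 52.0 CPM in Miz1 wt p53 ko and 80.7 and 91.1 CPM in Miz1 wt p53 wt.

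Zbtb17, the Miz1 gene, had 63, 46.8, 43.9 and 51.5 CPM in p53 ko leukaemias and 38, 42.9, 41.6 and 37.9 CPM in p53 wt leukaemias. Its groups were apart by a small margin (log2 difference 0.35, adjusted p = 0.222), and Spen overlaps it on the opposite strand. Around the Trp53 gene, 146 genes within 5 Mb had a median log2 difference of 0.11. Among them 10 (6.85%) were higher and 4 (2.74%) lower without overlap, beside 4.65% and 6.25% of all genes. None passed edgeR's test, and 27 had an unadjusted p under 0.05 (18.5%, the same share as over all genes). DESeq2 called 10 higher and 4 lower, beside 4.03% and 4.51% of all genes.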

How the data were processed

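Raw counts per gene were deposited by the authors, 1 table per mouse with 41214 Ensembl genes. Per the submitters' processing notes, TopHat2 2.0.10, SAMtools, HTSeq and DESeq were used with mm10 (GRCm38). The sources used here give neither the strand setting nor the annotation release. Per the labels, RNA was total RNA and libraries were made with a stranded mRNA kit. The 5 summary lines at the end of each table were left out, and the genes held 26.38% to 39.64% of a library's total in the 8 libraries.

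Names and coordinates came from GENCODE M21 (GRCm38). edgeR 4.0.16 (R 4.3.3) was run on the 8 libraries with TMM scaling, filterByExpr and a quasi-likelihood test with p53 status and suffix as terms, and Benjamini-Hochberg adjustment over all genes. Contrasts within a suffix used 4 group means, and those with Miz1 wt used the 12 ICN libraries. DESeq2 1.42.0 and limma-voom 3.58.1 were alternatives, besides other filters, scalings, fits and the omission of each library. Levels are CPM with TMM factors over the 12 ICN libraries, with a prior count of 2 for log2 values. The fit was also run on simulated counts with known changes. These held no suffix effect and no shift in cell content, so they do not show how the fit behaves with either.

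Up to 12 protein-coding genes a direction were named by lowest p among those with a mean of at least 0 log2 CPM and groups apart, T cell receptor and immunoglobulin segments excepted. Called genes, p53 regulators and targets, up to 3 members of each other list by lowest p, and up to 5 genes a direction for differences of effects were added. Cdk1, Ccnb2, Birc5, Aurka, Aurkb, Irgm2, Hes1, Dtx1, Myc, the neutrophil markers beyond the first 3, the markers called within Lck, Gm12609 and Gm12610 were named after their values were seen. The comparison, the gene lists and the named genes were chosen with earlier results of these data known. Some genes that this rule names are not reported here.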

Additional observations from a re-analysis of the deposited data

Results flagged for a closer look

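In 82 groups of 4 libraries checked for a value far from the other 3, 5 were found, where chance gives about 1 in 20. Rapgef2 stood at 11.29 log2 CPM in Vav p53 wt 2, against 10.27 to 10.4 in the other p53 wt libraries; the genes of its chromosome 3 had a median deviation of 0.26 in that library. Nectin1 stood at 2.34 in Lck p53 wt 1, above 1.42 to 1.58 in the other p53 wt libraries. Sh3gl3 stood at 1.1 in Vav p53 ko 2, below 2.69 to 2.87 in the other p53 ko libraries. The leukaemic T cell markers averaged 8.07 in Vav p53 ko 1, above 7.64 to 7.67 in the other p53 ko libraries. The share of alignments that were not unique was 56.19% in Vav p53 wt 2, above 47.72% to 48.27% in the other p53 wt libraries.

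For Trbv12-2 the effect of p53 loss differed between Lck and Vav mice, by -8.75 on the log2 scale; the test of the difference passed its threshold.

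The leukaemias without ICN entered none of the comparisons. All 4 are p53 ko, and Cdkn2a was at 93.4 and 148 CPM in the Miz1 deltaPOZ mice and at 91.7 and 38.9 CPM in the Miz1 wt mice. These values lie above the 0.355 to 1.53 CPM of the 6 p53 wt leukaemias, with levels scaled over all 16 libraries.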

How the results depend on the processing

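The count of calls depends on the fit, while the sign of Trp53 (-2.68 to -2.05) and Cdkn2a (5.35 to 6.61) held in all 19 alternatives. Trp53 passed in 15 of them and Cdkn2a in 14. Against 4 genes higher and 3 lower, DESeq2 gave 635 and 710, no low count filter 1055 and 953, no block for the suffix 17 and 13, 1 mean per group over 8 libraries 60 and 24, and over the 12 ICN libraries 8 and 5. One mean per group over 16 libraries gave 5 higher and 1 lower. With the neutrophil marker level or the share of alignments outside genes as a covariate, alternatives chosen after seeing the data, edgeR called 0 genes higher and 0 lower. The adjusted p of Trp53 in these edgeR fits was 0.144 and 0.0549. Both covariates separated the p53 groups, so the fits cannot tell either apart from p53 status. Omitting 1 library gave 1 to 60 genes higher and 0 to 38 lower. Trp53 missed the threshold without Lck p53 wt 2 (0.0551) and without Vav p53 ko 2 (0.0744). DESeq2 gave 1368 calls within Lck, 194 within Vav, 362 for Lck minus Vav, 275 with Miz1 wt and 51 for deltaPOZ minus Miz1 wt. The 16-library fit gave 0 for Lck minus Vav and 1 with Miz1 wt. Omitting 1 library, where a lone mouse is taken to vary like the other groups, gave 0 to 1 calls within Lck, 0 to 1 within Vav, 0 to 5 for Lck minus Vav, 0 to 2 with Miz1 wt and 0 to 1 for deltaPOZ minus Miz1 wt. Fewer samples enter when a library is omitted; otherwise the cause was not tested. No paired analysis was possible because the replicate numbers follow accession order and mark no shared litter or batch. Depth limits low genes: Gm7125 rests on 5 counts in p53 ko and 314 in p53 wt. The number of genes whose groups were apart depends on the scaling of levels. It was 732 higher and 984 lower with TMM over the 12 ICN libraries, and 822 and 879 over the 8 libraries. Without scaling factors it was 921 and 774. Of the 29 mitosis genes 12, 12 and 13 were higher under these scalings, and 0 lower.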

Other observations

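Chromosomes differed in how often the groups were apart. On chromosome 4, which carries Cdkn2a, Cdc20 and Zbtb17, 11.1% of 994 genes were higher in all p53 ko libraries and 2.21% lower, with a median log2 difference of 0.18, and of 0.25 with Miz1 wt. The median deviation of its genes from their mean over the 8 libraries was 0.16, 0.08, -0.06 and 0.21 in p53 ko (2 Lck, then 2 Vav) and -0.10, -0.05, -0.07 and -0.15 in p53 wt. On the X chromosome 17.4% of 522 genes were lower in all p53 ko libraries and 3.45% higher, with a median log2 difference of -0.19, and of -0.02 with Miz1 wt. Its median deviation was -0.13, -0.17, 0 and -0.16 in p53 ko and 0.10, 0.18, 0.11 and 0.12 in p53 wt. The Y-linked gene Ddx3y had 104 to 163 CPM in p53 ko and 147 to 206 CPM in p53 wt, so all 8 libraries held Y-linked RNA. The 4 Miz1 wt libraries were not alike in this respect, with Ddx3y at 23.4 to 179 CPM and Xist at 26.3 to 1290 CPM, while Xist was at 15.2 to 44.4 CPM in p53 ko and 10.5 to 50.5 CPM in p53 wt of the 8 libraries. On chromosome 14 the library Vav p53 wt 1 stood at 0.46, the other 7 between -0.15 and 0.12. Chromosome 3 carries Zmat3, S1pr1, Slc35a3 and Rapgef2. Of its 727 genes 8.8% were lower in all p53 ko libraries and 2.06% higher. Its median deviation was -0.10, 0.10, -0.06 and -0.20 in p53 ko and -0.04, 0.01, -0.01 and 0.26 in p53 wt. Of 356 genes on chromosome 18, 12.1% were lower and 2.53% higher.

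Gm12609 and Gm12610, non-coding genes beside Cdkn2a and Cdkn2b on chromosome 4, were also apart. Gm12609 had 0.583, 1.37, 0.452 and 0.914 CPM in p53 ko and 0.0589, 0.0224, 0 and 0.0511 CPM in p53 wt. Gm12610 had 0.628, 0.685, 0.326 and 0.603 CPM in p53 ko and 0.0589, 0.0224, 0.019 and 0.0681 CPM in p53 wt. Their adjusted p was 0.0806 and 0.0647.

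Hist1h2al, a histone pseudogene, split the p53 ko leukaemias by suffix. It had 1.48 and 0.503 CPM in Lck p53 ko and 68.8 and 66.5 CPM in Vav p53 ko, against 28.6 to 50.3 CPM in the p53 wt leukaemias. With Miz1 wt it had 0.616 and 0.514 CPM in p53 ko and 43.9 and 43.0 CPM in p53 wt.

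Across 13208 genes with a value, the log2 difference had a Spearman correlation of 0.193 with GC content and of -0.184 with transcript length. Genes are not independent replicates.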
